A study of Mus musculus with 6 samples.

Results

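The genes described here are 8 that are in common use as markers of fibroblasts, extracellular matrix and mural cells. They are the fibrillar collagen genes Col1a1, Col1a2 and Col3a1, the matrix genes Dcn and Sparc, the secreted binding proteins Igfbp5 and Apod, and the smooth muscle actin gene Acta2. They were taken by symbol from a list, and all 8 were found among the 21955 gene identifiers counted in each library. The poly-A RNA was that of neutrophils isolated from the dura, the tough outermost sheet of the meninges, of wild-type mice that had been exposed to a social threat. The study asked whether the state of these neutrophils differs between the sexes, with 3 libraries labelled female and 3 labelled male. All 6 libraries come from exposed mice, and the sources used here do not give the strain, the age, the sort gate or whether a library was pooled from several animals.

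The libraries held 18555944 to 20778410 counts in the group labelled female and 17098026 to 18272577 in the group labelled male. Reads of the Y-linked genes Ddx3y, Eif2s3y, Kdm5d and Uty, which a female genome lacks, summed to 312 to 328 CPM, the unit of counts scaled to the total of the library, in female-labelled libraries and to 307 to 318 CPM in male-labelled libraries. Each female-labelled library thus held Y-linked RNA at the male-labelled level, contrary to its label, and every difference given here is one between libraries so labelled. Of 13 neutrophil genes measured, the least abundant was Ly6g, which codes for the surface antigen used to define mouse neutrophils, at a mean of 202 CPM.

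Fibrillar collagens are rod-like proteins of the extracellular matrix that fibroblasts and osteoblasts secrete. Type I collagen is assembled from the products of Col1a1 and Col1a2, and type III collagen from that of Col3a1. The dura is a collagen-rich sheet in which fibroblasts lie beside blood vessels, and the vessels are wrapped by smooth muscle cells and pericytes. Decorin, from Dcn, binds to collagen fibrils, and the product of Sparc binds collagen and calcium. The product of Igfbp5 binds insulin-like growth factors, apolipoprotein D from Apod is a lipocalin that carries small lipids, and Acta2 codes for the actin of contractile vascular smooth muscle.

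All 8 genes were rare in these libraries. Together they had 387, 430 and 529 counts in female-labelled libraries and 441, 456 and 558 in male-labelled libraries. As a share of all counts this was 20.9, 22.6 and 25.5 CPM before normalization in female-labelled libraries, and 24.1, 26.4 and 32.6 CPM in male-labelled libraries. The exact 95% binomial intervals reached from 18.8 to 27.7 CPM over female-labelled libraries and from 21.9 to 35.5 CPM over male-labelled ones, and they cover counting error only. The 2 groups overlapped in this sum.

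The genes of the list did not behave as 1 group. Levels below are CPM after TMM normalization, and fold changes are libraries labelled female over male-labelled ones. By edgeR's quasi-likelihood test with Benjamini-Hochberg adjustment over all 11903 genes tested and a threshold of 0.05, Igfbp5 and Apod fell and Acta2 rose in female-labelled libraries. Of the 8 genes, 6 passed the filter on low counts, and 3 of these 6 were called, beside 13.9% of all tested genes. Of these 3, Apod passed the filter only through the male-labelled libraries, where it was high, so nothing is read from this count against the background. The calls were 1 higher and 2 lower, where 7.29% of all tested genes were higher and 6.62% were lower. Dcn and Col3a1 were too rare to be tested. The median log2 change of the 6 tested genes was -0.58, and that of all tested genes was 0. Apod is among these 6 too, so nothing is read from this median against the background either.

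**Figure D1:**
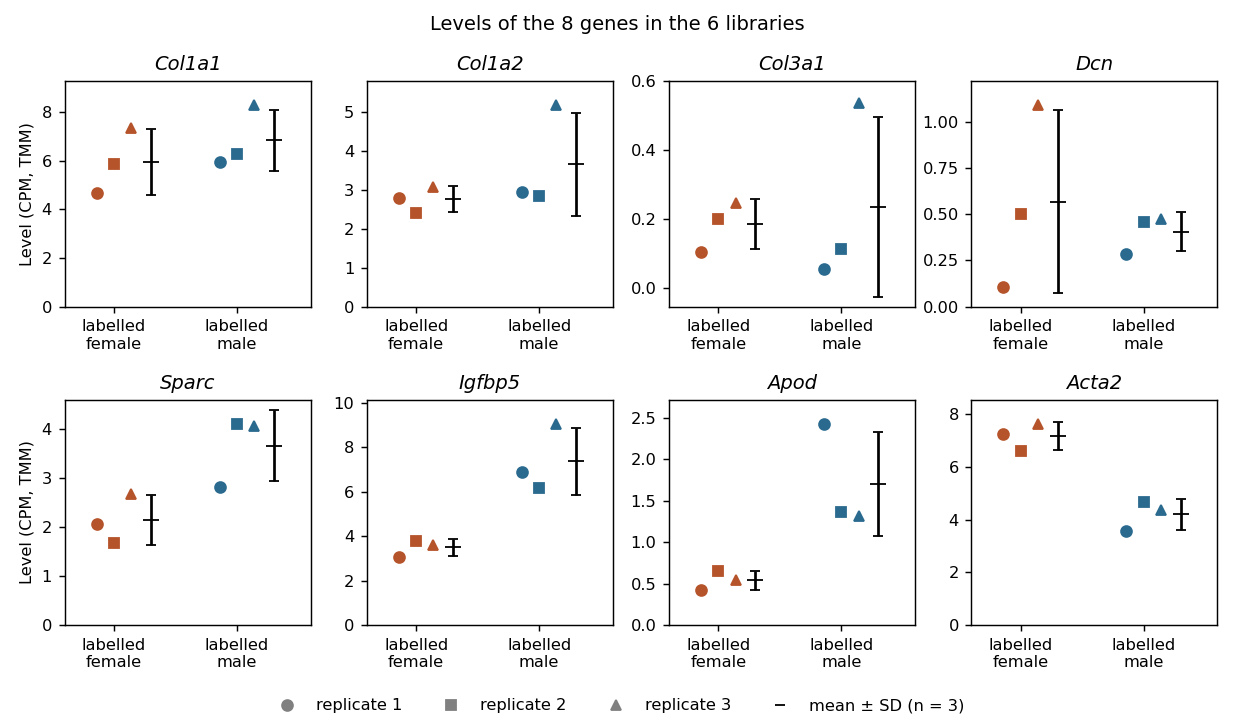
Level of each of the 8 genes (y axis, TMM-normalized CPM, 1 scale per panel) in the 3 libraries labelled female and the 3 labelled male, with a marker shape for each replicate number and the mean ± SD at the right of each group. Igfbp5, Apod and Sparc are lower in all 3 libraries labelled female than in any labelled male, Acta2 is higher in all 3, and the other 4 genes overlap.

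The promoters of the 3 genes that passed the test are shown because their changes had different directions. Each sequence is the 250 bases before the annotated start, from RefSeq on GRCm38.p6, written 5′ to 3′ on the gene's strand. The window of Acta2 is chr19:34255374-34255623, that of Igfbp5 is chr1:72874866-72875115 and that of Apod is chr16:31314809-31315058, all on the minus strand. Capitals mark matches to the CArG box, the element bound by serum response factor, with at most 1 base off its consensus.
Acta2: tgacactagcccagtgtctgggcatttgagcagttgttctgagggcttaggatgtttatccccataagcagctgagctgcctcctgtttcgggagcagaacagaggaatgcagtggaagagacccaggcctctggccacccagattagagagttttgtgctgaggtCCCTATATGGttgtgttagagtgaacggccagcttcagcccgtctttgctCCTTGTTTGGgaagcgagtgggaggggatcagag
Igfbp5: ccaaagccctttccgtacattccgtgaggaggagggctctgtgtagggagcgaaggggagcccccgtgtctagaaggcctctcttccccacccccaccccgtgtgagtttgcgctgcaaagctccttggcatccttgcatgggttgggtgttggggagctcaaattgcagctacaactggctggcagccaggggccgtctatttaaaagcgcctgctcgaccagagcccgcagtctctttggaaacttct
Apod: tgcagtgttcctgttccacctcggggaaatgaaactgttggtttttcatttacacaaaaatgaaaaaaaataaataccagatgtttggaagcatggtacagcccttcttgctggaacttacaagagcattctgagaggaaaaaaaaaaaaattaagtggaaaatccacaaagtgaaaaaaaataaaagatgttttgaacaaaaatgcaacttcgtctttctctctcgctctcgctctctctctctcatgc
The window of Acta2 held 2 such matches, which began at positions -84 and -34 from the start. Those of Igfbp5 and Apod held none, and 18.6% of 32851 windows of this length in the table held at least 1. An exact CArG box was in 1.47% of all windows and in none of these 3. TATANA, searched on both strands, was in 22.6% of all windows and in none of these 3. The windows stop at the annotated start, and near matches such as tatttaaa in that of Igfbp5 are not counted. The search thus does not show that these promoters lack a TATA box. RefSeq windows were found for 6 of the 8 genes, without Col1a1 and Dcn, and of the other 3 that of Col1a2 held 2 CArG matches with at most 1 base off. A match of letters is a description of the sequence and does not show that a factor was bound.

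Type I collagen transcripts were present at a few CPM in each library and did not pass the test. Col1a1 (ENSMUSG00000001506, chromosome 11) had 4.66, 5.85 and 7.34 CPM in female-labelled libraries, against 5.93, 6.27 and 8.28 CPM in male-labelled libraries. The groups overlapped, with 5.95 ± 1.35 CPM in female-labelled libraries and 6.83 ± 1.27 CPM in male-labelled libraries (SD, n = 3 each). Its log2 change was -0.19 with a 95% interval of -0.59 to 0.20 (adjusted p = 0.551 by edgeR). Col1a2 (ENSMUSG00000029661, chromosome 6) had 2.80, 2.42 and 3.08 CPM in female-labelled libraries, against 2.94, 2.85 and 5.18 CPM in male-labelled libraries. Only the library labelled male replicate 3 lay above the range of those labelled female by a wide margin. The log2 change was -0.40 with an interval of -0.94 to 0.15 (adjusted p = 0.343), and it was -0.06 without that library. Both intervals reach past 0 and include changes of either sign. A predicted gene, Gm43921, overlaps Col1a2 on the same strand in GENCODE M21 and was not analysed here.

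Per length of the longest protein-coding transcript, Col1a1 was 1.5, 2.18 and 2.15 times as abundant as Col1a2 in female-labelled libraries, and 1.82, 1.98 and 1.44 times in male-labelled libraries. Transcripts of both chains of type I collagen were thus found in every library, with more of Col1a1 in each, and the ratio overlapped between the groups.

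Col3a1 (ENSMUSG00000026043, chromosome 1) was nearly absent. It had 2, 4 and 5 counts in female-labelled libraries and 1, 2 and 9 counts in male-labelled libraries. Per length its mean was 0.0378 CPM per kilobase over the 6 libraries, beside 1.08 for Col1a1 and 0.601 for Col1a2. In GENCODE M21 a predicted gene, Gm47302, overlaps Col3a1 on the same strand and shares 1.67% of its 50-base words. The library labelled male replicate 3 held the highest level of all 6 libraries for Col1a1, Col1a2, Col3a1 and Igfbp5.

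Dcn (ENSMUSG00000019929, chromosome 10) had 2, 10 and 22 counts in female-labelled libraries, which spanned 0.106 to 1.09 CPM, and 5, 8 and 8 counts in male-labelled libraries. Its spread among the libraries labelled female covered all of those labelled male, so no difference was detectable at this depth. Without the filter on low counts the log2 change was 0.50 for Dcn (adjusted p = 0.693) and -0.31 for Col3a1 (adjusted p = 0.89).

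Sparc (ENSMUSG00000018593, chromosome 11) had 2.06, 1.66 and 2.68 CPM in female-labelled libraries, against 2.82, 4.11 and 4.05 CPM in male-labelled libraries. All 3 libraries labelled female lay below all 3 labelled male, although the nearest pair differed by little. Groups did not overlap in 30.9% of all tested genes, with the libraries labelled female lower in 15.0%. The log2 change was -0.77 (SE 0.26, 95% interval -1.32 to -0.23) with an adjusted p of 0.0528 by edgeR, which missed the threshold. The adjusted p was 0.0181 without the library labelled female replicate 3 and 0.0377 without male replicate 1, within a range of 0.0181 to 0.21 over 14 alternative settings.

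Igfbp5 fell in female-labelled libraries. Igfbp5 (ENSMUSG00000026185, chromosome 1) had 3.07, 3.78 and 3.62 CPM in female-labelled libraries, against 6.89, 6.16 and 9.05 CPM in male-labelled libraries. The groups lay apart, with 58 to 75 counts per library labelled female and 108 to 152 per library labelled male. The mean was 3.49 ± 0.374 CPM in female-labelled libraries and 7.37 ± 1.51 CPM in male-labelled libraries (SD, n = 3 each), a log2 change of -1.07 (SE 0.19, 95% interval -1.48 to -0.67, adjusted p = 0.000702 by edgeR). None of its 50-base words stands in a transcript of another gene. It stayed past the threshold under all 14 alternative settings, with adjusted p from 1.05e-06 to 0.011.

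Apod had the largest fitted change of the 6 tested genes and the smallest counts among them. Apod (ENSMUSG00000022548, chromosome 16) had 8, 13 and 11 counts in female-labelled libraries and 43, 24 and 22 in male-labelled libraries. These were 0.423, 0.655 and 0.546 CPM in female-labelled libraries, against 2.43, 1.37 and 1.31 CPM in male-labelled libraries. The groups did not overlap, and the library labelled male replicate 1 stood above the other 5. The log2 change was -1.64 (SE 0.40, 95% interval -2.48 to -0.80, adjusted p = 0.00888 by edgeR). The call was lost without male replicate 1 (log2 -1.29, adjusted p = 0.0745) or female replicate 1 (log2 -1.5, adjusted p = 0.0503), in a range of 0.00322 to 0.0745 over 14 settings. On CPM before TMM normalization, which the filter uses, Apod reached its level of 0.543 CPM in 1 of 3 libraries labelled female and 3 of 3 labelled male, so it was tested because of the group where it was high.

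Acta2 went the other way. Acta2 (ENSMUSG00000035783, chromosome 19) had 7.25, 6.60 and 7.64 CPM in female-labelled libraries, against 3.56, 4.68 and 4.35 CPM in male-labelled libraries. All 3 libraries labelled female lay above all 3 labelled male, as was so for 15.9% of all tested genes. The mean was 7.16 ± 0.523 CPM in female-labelled libraries and 4.19 ± 0.575 CPM in male-labelled libraries (SD, n = 3 each), a 1.71-fold rise (log2 0.77, SE 0.18, 95% interval 0.40 to 1.14, adjusted p = 0.00546 by edgeR). It stayed past the threshold under all 14 settings (adjusted p 0.000516 to 0.0322).

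Other actins are far more abundant in these cells, so shared sequence was measured. Of the 50-base words of Acta2, 0.352% also stand in transcripts of Actg1, Actg-ps1 and predicted genes. Actb, the cytoplasmic beta-actin gene, had 6333 ± 677 CPM in female-labelled libraries and 5808 ± 349 CPM in male-labelled libraries, a log2 change of 0.12 (adjusted p = 0.296). Actg1 had 1866 ± 109 CPM in female-labelled libraries and 1663 ± 47.7 CPM in male-labelled libraries, a log2 change of 0.17 (adjusted p = 0.0745). The sources used here do not give how reads that match several genes were counted.

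**Figure D2:**
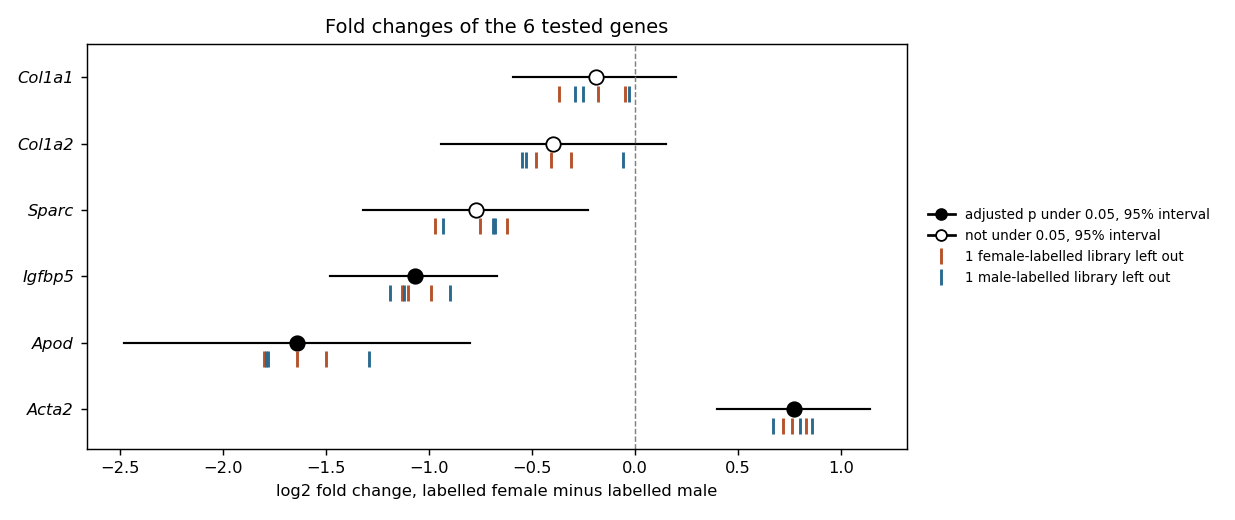
Log2 fold change (x axis, libraries labelled female minus those labelled male) of the 6 tested genes, with 95% intervals. Filled points had an adjusted p under 0.05 and short ticks are the values with 1 library left out, which keep their sign for all 6 genes while the values of Apod reach from -1.80 to -1.29.

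Levels were ordered between genes per length, as CPM per kilobase of transcript. Acta2 was highest in both groups, at 3.52 ± 0.257 in female-labelled libraries and 2.06 ± 0.282 in male-labelled libraries (SD, n = 3 each). In the libraries labelled female the order was Acta2, Col1a1, Sparc, Igfbp5, Col1a2, Dcn, Apod and Col3a1. There the mean ± SD ranges overlapped between Col1a1 and Sparc, Igfbp5 and Col1a2, Col1a2 and Dcn, and Dcn and Apod. In the libraries labelled male the order was Acta2, Sparc, Igfbp5, Col1a1, Apod, Col1a2, Dcn and Col3a1. There each of the neighbours from Acta2 to Col1a2 overlapped, and Dcn and Col3a1 lay apart at 0.230 ± 0.0607 and 0.0423 ± 0.0471. Col3a1 was lowest in both groups.

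The list's label as stromal RNA was set against marker genes of the cells that a dura could contribute, and these were of mixed level. Of 66 marker genes of fibroblasts, arachnoid and meningeal fibroblasts, smooth muscle, pericytes and osteoblasts, 21 averaged at least 1 CPM, 45 averaged less and 11 of these had no count in any library. Among 19 fibroblast genes 9 averaged at least 1 CPM, which were C3 (1127 CPM), Gsn (268.5), Pi16 (119), Cd34 (36.7), Cxcl12 (28.4), Thy1 (13.6), Serping1 (2.29), Fstl1 (1.67) and Fap (1.13). The genes Dpt, Mmp2, Twist1, Tcf21 and Ccl11 had no count, which allows up to 0.144 to 0.175 CPM per library at 3 counts. Pdgfra, the receptor gene that marks fibroblasts, had 0, 4 and 8 counts in female-labelled libraries and 5, 17 and 13 in male-labelled libraries. Lum, the gene of the proteoglycan lumican, averaged 0.287 CPM. Markers of the fibroblast list thus ran from 0 to over the level of Ly6g, and the 8 genes are named here by symbol.

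Of 14 other smooth muscle genes, Smtn, Tpm1 and Myl9 averaged at least 1 CPM and 11 averaged less. Tpm1, a tropomyosin gene that many cells transcribe, had 17.3 ± 0.404 CPM in female-labelled libraries and 17.6 ± 0.37 CPM in male-labelled libraries (adjusted p = 0.915 by edgeR). Myh11, the smooth muscle myosin heavy chain gene, had 0, 0 and 2 counts in female-labelled libraries and 2, 1 and 1 in male-labelled libraries. Tagln, which codes for transgelin and is as a rule abundant in that cell, averaged 0.172 ± 0.135 CPM in female-labelled libraries and 0.381 ± 0.257 CPM in male-labelled libraries (SD, n = 3 each), and Cnn1 averaged 0.0912 CPM over all 6. Of the 14 genes 7 were tested and edgeR called 0, with 2 lower at an unadjusted p under 0.05, 0 called by DESeq2 and 1 lower by limma-voom. That 1 was Smtn, the smoothelin gene and the most abundant of the list, at 18.6 ± 3.45 CPM in female-labelled libraries and 23.6 ± 0.874 CPM in male-labelled libraries (adjusted p = 0.0514 by edgeR, and 0.00111 without female replicate 3). In edgeR Smtn was also lower with DESeq2 size factors (0.0487), upper-quartile factors (0.0395) and no filter (0.0171). The same held with the filter of 1 CPM (0.049), without mitochondrially encoded genes (0.0433) and with the replicate block (0.0233). The summed level of the 14 genes was 35.6 to 43.7 CPM in female-labelled libraries and 45.6 to 46.9 CPM in male-labelled libraries. Smtn (mean 21.1 CPM over all 6) and Tpm1 (17.5 CPM) made up most of this sum, so it is not set against Acta2. In bulk RNA, fewer cells of a type and less RNA per cell cannot be told apart.

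**Figure D3:**
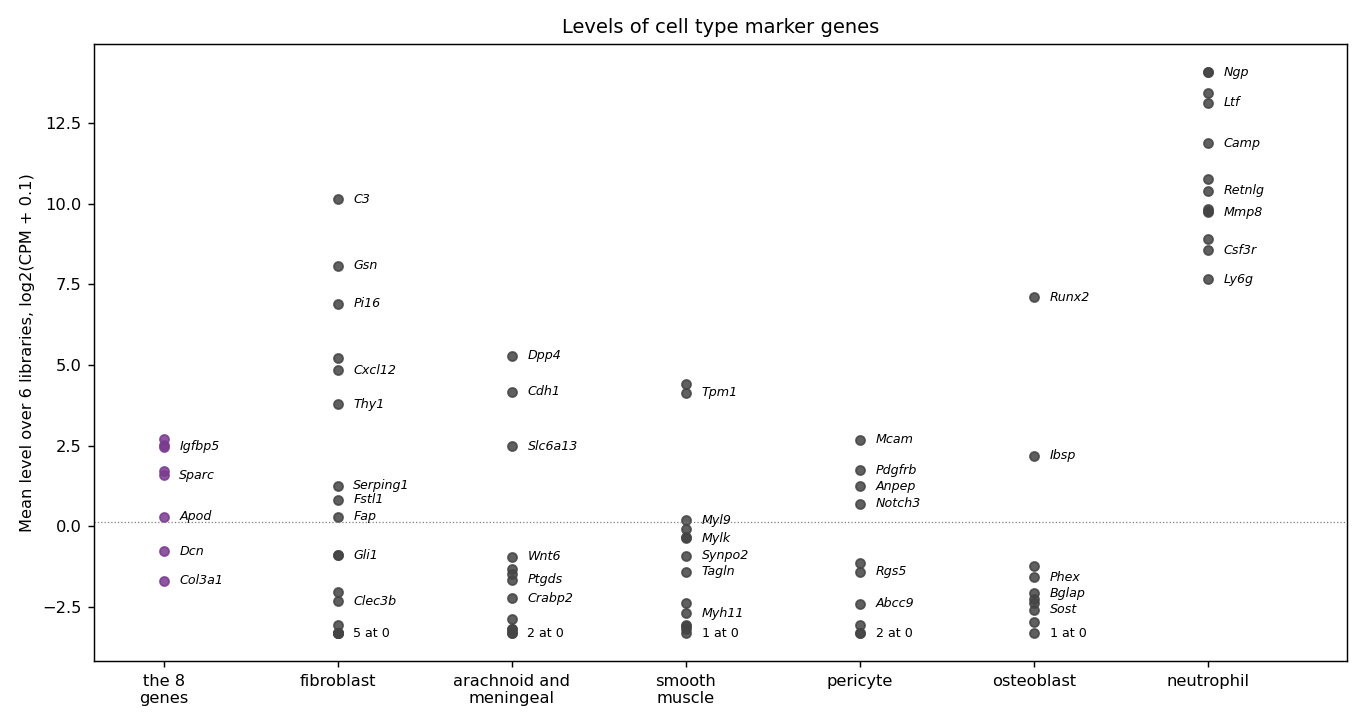
Mean level over the 6 libraries (y axis, log2 of CPM + 0.1) of the 8 genes, of the marker genes of 5 stromal cell types and of neutrophils, with 1 point per gene and a dotted line at 1 CPM. Of the 66 stromal markers 21 average at least 1 CPM, 45 lie under that line and 11 of these are at 0. The neutrophil genes begin at 202 CPM, a level that C3 (1127 CPM) and Gsn (268.5 CPM) of the fibroblast markers exceed.

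Of 10 pericyte genes 4 averaged at least 1 CPM, and these 4 were tested. Pdgfrb, the receptor gene in common use as a pericyte marker, had 3.18 ± 0.226 CPM in female-labelled libraries and 3.27 ± 0.498 CPM in male-labelled libraries (log2 -0.04, adjusted p = 0.93 by edgeR). Anpep, an aminopeptidase gene, averaged 2.26 CPM (log2 -0.78, adjusted p = 0.055, and lower with the filter of 1 CPM). Among the other 6 genes, Rgs5, Kcnj8 and Abcc9 were each under 0.36 CPM on average, and Higd1b and Atp13a5 were at 0. Mcam rose and Notch3 fell. Mcam, the gene of a cell adhesion molecule, had 8.63 ± 1.21 CPM in female-labelled libraries and 4.0 ± 0.299 CPM in male-labelled libraries (log2 1.11, adjusted p = 0.000148 by edgeR). Notch3, a receptor gene of mural cells, had 0.984 ± 0.05 CPM in female-labelled libraries and 2.07 ± 0.120 CPM in male-labelled libraries (log2 -1.07, adjusted p = 0.0278). The call of Notch3 was lost without any 1 of 5 libraries, all but female replicate 3 (adjusted p 0.0683 to 0.102). The summed level of the list was 14.3 to 15.9 CPM in female-labelled libraries and 12.4 to 13.2 CPM in male-labelled libraries. Mcam was the most abundant gene in this sum and rose, whereas Pdgfrb was near equal. Notch3 and Anpep (1.67 CPM in female-labelled and 2.86 CPM in male-labelled libraries) went the other way. The direction of the sum is thus that of Mcam and not of the list as a whole.

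Of 19 fibroblast genes 10 were tested, with Cd34 higher and Cxcl12 and Serping1 lower. Cxcl12, a chemokine gene of stromal cells, had 19.2 ± 1.98 CPM in female-labelled libraries and 37.5 ± 3.77 CPM in male-labelled libraries (log2 -0.96, adjusted p = 8.5e-07 by edgeR). Serping1, the gene of the C1 inhibitor, had 1.39 ± 0.118 CPM in female-labelled libraries and 3.20 ± 0.982 CPM in male-labelled libraries (log2 -1.20, adjusted p = 0.00903), and its call was lost without male replicate 2 (adjusted p = 0.0847). Cd34, a sialomucin also found on progenitor and endothelial cells, rose 1.31-fold (adjusted p = 0.00422). A further gene, Pi16, was higher without female replicate 2 and, with all 6 libraries, with no filter (adjusted p = 0.0196 by edgeR). Without female replicate 3 the count of lower genes was 3. The most abundant gene of the list was C3, of complement, at 1099 ± 69.97 CPM in female-labelled libraries and 1155 ± 20.9 CPM in male-labelled libraries, which myeloid cells also make. With C3 included the sum of the list was 1459 to 1678 CPM in female-labelled libraries and 1580 to 1659 CPM in male-labelled libraries.

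Of 13 arachnoid and meningeal genes 3 were tested and 2 fell. Dpp4, a surface peptidase gene, was 1.36-fold lower (adjusted p = 0.000869) and Cdh1, the E-cadherin gene, likewise 1.36-fold lower (adjusted p = 0.00793 by edgeR). The third, Slc6a13, a GABA transporter gene of meningeal cells, had 5.45 ± 0.824 CPM in female-labelled libraries and 5.53 ± 1.52 CPM in male-labelled libraries (log2 -0.02, adjusted p = 0.964). The other 10 genes averaged under 1 CPM, among them Ptgds, the prostaglandin D synthase gene, at 0.216 CPM. Dpp4 and Cdh1 are also transcribed in lymphoid or dendritic cells. The list summed to 51.4 to 57.1 CPM in female-labelled libraries and 71.2 to 73.8 CPM in male-labelled libraries. Dpp4 (mean 39.0 CPM over all 6) and Cdh1 (17.9 CPM) made up most of this sum. Its direction is thus that of these 2 genes and not of the list as a whole.

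Bone lies next to the dura, and osteoblasts secrete type I collagen. Of 10 osteoblast genes, Ibsp and Runx2 were tested and both fell. Ibsp, the gene of bone sialoprotein, had 2.57 ± 0.580 CPM in female-labelled libraries and 6.31 ± 1.51 CPM in male-labelled libraries (SD, n = 3 each; log2 -1.29, SE 0.23, adjusted p = 0.000649 by edgeR). It stayed past the threshold under all 14 settings, with adjusted p up to 0.0105. Runx2, a transcription factor gene that plasmacytoid dendritic cells also use, was 1.19-fold lower (adjusted p = 0.0106), a call lost without female replicate 2, male replicate 2 or male replicate 3 (adjusted p = 0.0661, 0.0542 and 0.101). The other 8 genes averaged under 1 CPM, with Alpl, the alkaline phosphatase gene, highest at 0.329 CPM and Mepe at 0.

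Other genes of the matrix were read from lists without the 8. Of 38 other collagen genes 11 were tested, and edgeR called 1 lower and 0 higher, with 0 higher also at an unadjusted p under 0.05, by DESeq2 and by limma-voom. It was Col7a1, the gene of anchoring fibril collagen, with 2.22 ± 0.236 CPM in female-labelled libraries and 4.21 ± 0.702 CPM in male-labelled libraries (log2 -0.92, adjusted p = 0.012). The call was lost without female replicate 2 or male replicate 1 (adjusted p = 0.0606 and 0.0663). The most abundant was Col11a2 at 8.51 ± 0.388 CPM in female-labelled libraries and 10.6 ± 1.1 CPM in male-labelled libraries (adjusted p = 0.138). Of the 38 genes 8 averaged at least 1 CPM. Among chains of type V collagen, which assembles into fibrils with type I, Col5a1 had 5.40 ± 0.531 CPM in female-labelled libraries and 4.27 ± 0.896 CPM in male-labelled libraries (log2 0.34, adjusted p = 0.287). Col5a3 averaged 2.69 CPM (log2 0.09, adjusted p = 0.876) and Col5a2 0.223 CPM. The type VI chains Col6a1, Col6a2 and Col6a3 each averaged under 0.37 CPM. The median log2 change of the 11 was -0.20.

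Genes for the folding and crosslinking of collagen were tested for 17 of 26 members. EdgeR called 0, with 1 higher and 2 lower at an unadjusted p under 0.05, and DESeq2 and limma-voom called 0. P4hb, a subunit gene of prolyl hydroxylase that also serves general protein folding, led with 709 ± 19.8 CPM in female-labelled libraries and 690.2 ± 15.1 CPM in male-labelled libraries. Of the 26 genes 14 averaged at least 1 CPM, among them Plod3 (113 CPM), Colgalt1 (76.6), P4ha1 (25.3) and Plod1 (22.4), which modify collagen chains. Serpinh1, the collagen chaperone gene, averaged 2.16 CPM, and Lox, the crosslinking enzyme gene, 0.327 CPM. Without female replicate 3, Plod2, a lysyl hydroxylase gene, was lower (adjusted p = 0.0479), and with no filter Adamts14 was lower (0.049).

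Proteoglycan and glycoprotein genes that passed the test were abundant and rose. Vcan, the gene of the large proteoglycan versican, had 192 ± 22.6 CPM in female-labelled libraries and 112 ± 16.4 CPM in male-labelled libraries (log2 0.78, adjusted p = 3.34e-06 by edgeR). It was the only call among 4 tested of 12 proteoglycan genes. Bgn, the gene of biglycan and a close relative of Dcn, had 1.95 ± 0.352 CPM in female-labelled libraries and 3.26 ± 0.916 CPM in male-labelled libraries (adjusted p = 0.0846), with 0.0439 without female replicate 3 and 0.0329 without male replicate 1. Thbs1, the thrombospondin gene, had 812 ± 48.3 CPM in female-labelled libraries and 441 ± 16.3 CPM in male-labelled libraries (log2 0.88, adjusted p = 3.11e-09). It was the only call among 13 tested of 30 matrix glycoprotein genes, and without female replicate 3 there was also 1 lower gene. Fn1, the fibronectin gene, was the most abundant of them, at 1228 ± 116 CPM in female-labelled libraries and 1272 ± 18.1 CPM in male-labelled libraries (adjusted p = 0.666). Monocytes or neutrophils are known to transcribe Vcan, Thbs1 and Fn1. The median log2 change was -0.58 for the 13 glycoprotein genes and -0.41 for the 4 proteoglycan genes, beside 0 for all tested genes. Among the glycoprotein genes Nid2 had 8, 4 and 15 counts in female-labelled libraries and 10, 18 and 22 in male-labelled libraries. It thus passed the filter on low counts mainly through the male-labelled libraries, and nothing is read from these medians against the background.

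The insulin-like growth factor system, to which Igfbp5 belongs, had 6 of 17 other genes tested. Igf1r, the gene of the growth factor's receptor, rose 1.24-fold (124.9 ± 10.4 CPM in female-labelled libraries and 100.3 ± 3.54 CPM in male-labelled libraries, adjusted p = 0.00302 by edgeR). Irs2, the gene of a docking protein of that receptor, was 1.45-fold lower (40.5 ± 1.33 CPM in female-labelled libraries and 58.7 ± 1.00 CPM in male-labelled libraries, adjusted p = 1.55e-05). Igfbp4, another binding protein gene and the most abundant of the list, had a log2 change of -0.06 (adjusted p = 0.607, 154 ± 8.56 CPM in female-labelled libraries and 160.3 ± 8.52 CPM in male-labelled libraries). Igf2r averaged 53.4 CPM and Igf1 1.85 CPM, and Igf2, Igfbp1 and Igfbp6 had no count. The median log2 change of the 6 genes was -0.08.

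Genes with the nearest profiles over the 6 libraries were sought among 10558 to 10560 tested genes with a mean of at least 1 log2 CPM, by the root mean square difference of centred log2 CPM. For Igfbp5 they were Tnf (0.121), Usp18 (0.124) and Zbp1 (0.146), a cytokine gene and a pair of interferon-induced genes. For Acta2 they were Dab2ip (0.0416), Ppp1r3d (0.0873) and Ifit1bl2 (0.0952), and for Apod they were Rab30 (0.266), Fam71a (0.272) and Gm5431 (0.276). For the sum of Col1a1, Col1a2 and Col3a1 they were Phlda1 (0.0732), Nsmf (0.0998) and Xlr4a (0.103). The nearest were Hist1h1b (0.0673), Lrmda (0.0717) and Pbx4 (0.0741) for Col1a1, and Gpr19 (0.0875), Mreg (0.128) and Setd4 (0.135) for Col1a2. Those for Sparc were Serpina3f (0.131), Fbxw17 (0.139) and Msh5 (0.139). At their low counts Dcn and Col3a1 had no gene as near, with Adhfe1 (0.406), Nradd (0.425) and Gm20604 (0.452) for Dcn, and Ugt1a6a (0.307), Zscan18 (0.337) and Cish (0.358) for Col3a1. The floor of 1 log2 CPM kept Apod, Dcn and Col3a1 from being candidates. It also kept out the 30 of 38 other collagen genes that averaged under 1 CPM. As the floor is on the log2 scale, it further kept out Col4a1 (1.2 CPM) and Col23a1 (1.62 CPM). Nothing is therefore read from the absence of such genes among the nearest. With 6 libraries such likeness is a description only.

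**Figure D4:**
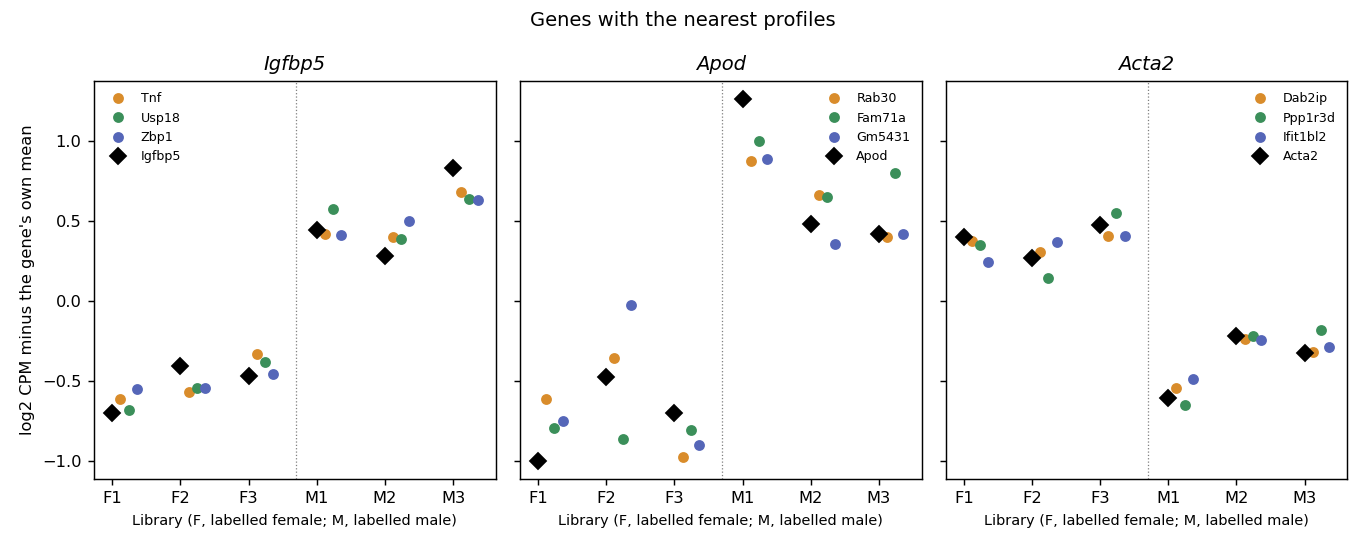
Log2 CPM minus each gene's own mean (y axis) in the 3 libraries labelled female and the 3 labelled male, for Igfbp5, Apod and Acta2 (diamonds) and the 3 tested genes nearest to each (circles). All 3 genes near Acta2 are above their mean in female-labelled libraries, and those near Igfbp5 and Apod are below it.

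Several markers of other cells and of RNA quality moved between the same groups as Igfbp5, Apod and Acta2. Of 8 B cell genes 6 fell, and the list summed to 155 to 217 CPM in female-labelled libraries and 260.3 to 319.7 CPM in male-labelled libraries. Of 8 dendritic cell genes 4 fell, or 3 without male replicate 1 or 3, with sums of 189.9 to 194 CPM in female-labelled libraries and 271 to 284 CPM in male-labelled libraries. Of 8 erythroid genes 4 rose, with 3 without female or male replicate 2, 6 without female replicate 3 and 5 with the filter of 1 CPM, and sums of 36.3 to 66.2 CPM in female-labelled libraries and 19.5 to 24.96 CPM in male-labelled libraries. Of 13 neutrophil genes 8 rose and 1 fell, with 5 higher without male replicate 2 and the lower call of Mpo lost without any 1 library but female replicate 3 (adjusted p 0.0606 to 0.144). Of all tested genes 7.29% were higher and 6.62% were lower. The lists were chosen with earlier results of these data known, so nothing is read from these counts against those shares. The share of counts in mitochondrially encoded genes was 6.42% to 8.49% in female-labelled libraries and 10.7% to 13.1% in male-labelled ones. The part of each of these in the differences of Igfbp5, Apod and Acta2 was not tested.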

How the data were processed

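Poly-A RNA of 6 neutrophil libraries was sequenced on an Illumina NovaSeq, per the labels' protocols, which name no step that marks the strand. Cutadapt 1.15, HISAT2 2.0.5 and the build GRCm39 are named in the submitters' processing notes, with no role or order. Values are the authors' deposited counts, unnormalized whole numbers for 21955 Ensembl identifiers. The sources used here do not give the counting tool. GENCODE M21 (GRCm38) named 21898 identifiers and gave transcript lengths. Promoters are from RefSeq on GRCm38.p6, a build other than that of the counts.

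Groups follow the labels' titles. The labels do not state separate animals, so a p-value here reflects only how these libraries vary, perhaps technically. No pair within a group was a duplicate (4.19 to 17.4 chi-square per degree of freedom). The test was edgeR 4.0.16 under R 4.3.3 (TMM, filterByExpr at min.count 10, quasi-likelihood, Benjamini-Hochberg adjustment over all 11903 genes, threshold 0.05), and group alone was modelled. SE came from each change and its F, and log2 CPM used a prior count of 2. The alternatives include DESeq2 1.42.0 and limma-voom (limma 3.58.1). The pipeline was tested on simulated counts.

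The 8 genes, the lists and the tests were chosen with earlier results of these data known. Counts of called genes in any list stand beside 7.29% of all tested genes higher and 6.62% lower. Nothing is read from them against these shares. The rule for naming covered the 8, up to 4 called genes and the most abundant tested gene of each list, the Y-linked genes and the nearest profiles. Not every gene that this rule covers is named, such as those of the B cell, dendritic cell, erythroid and mast cell lists. Markers named at or near 0, Actb, Actg1, Bgn, Plod2, Serpinh1, Lox, Igf1, Pi16, Smad3, Pecam1, Cdh5, Ly6g, Mbp and further list genes without a call were named after their values were seen. Lists held 322 entries, of which 320 matched a row.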

Additional observations from a re-analysis of the deposited data

How the results depend on the processing

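Igfbp5, Acta2, Col1a1 and Col1a2 kept their direction and their side of the threshold under all 14 alternatives, and no tested gene of the 8 reversed. Apod lost its call without male replicate 1 or female replicate 1. Sparc passed with upper-quartile factors (adjusted p = 0.0476), with no filter (0.0266), without mitochondrially encoded genes (0.0494) and without female replicate 3 or male replicate 1, and the cause was not tested. With 1 library left out, 1 to 3 of the 8 genes were lower and 1 was higher, and of all genes 439 to 1439 were higher and 467 to 1269 lower, where 868 and 788 were called with all libraries. The highest counts were those without female replicate 3 and the lowest those without male replicate 3.

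No pairing of the libraries by replicate number was seen, though 3 libraries per group cannot exclude one. Deviations from the group means correlated at -0.04, 0.06 and 0.06 between libraries of the same number, and not every library correlated best with its own number. With the replicate block 1007 genes were higher and 914 lower, and of the 8 genes 1 was higher and 3 lower, Sparc being added (adjusted p = 0.0413). DESeq2 called 872 higher and 772 lower.

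Counts of 1 to 22 per library limit Dcn and Col3a1, and those of 8 to 43 limit Apod.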

Other observations

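Genes of collagen receptors and of the TGF-beta pathway, which governs collagen genes in fibroblasts, were of mixed level. Of 10 receptor genes 4 averaged under 1 CPM, as did 10 of 25 pathway genes. In female-labelled libraries the receptors summed to 321 to 374 CPM and the pathway to 1421 to 1485 CPM. In male-labelled libraries these sums were 335 to 342 CPM and 1381 to 1403 CPM. The 38 other collagen genes summed to 28.1 to 33.5 CPM in female-labelled and 34.9 to 36.2 CPM in male-labelled libraries. Of 10 collagen receptor genes 6 were tested. Itgb1, the integrin beta chain gene, had 211 ± 23.2 CPM in female-labelled libraries and 181 ± 2.91 CPM in male-labelled libraries (log2 0.22, adjusted p = 0.0373 by edgeR). Lair1, an inhibitory receptor gene of leukocytes for collagen, had 76.1 ± 1.91 CPM in female-labelled libraries and 88.6 ± 1.55 CPM in male-labelled libraries (log2 -0.22, adjusted p = 0.0192). The call of Itgb1 was lost without any 1 library but female replicate 3 (adjusted p 0.101 to 0.185) and with upper-quartile factors (0.0518). That of Lair1 was lost without female replicate 2 or any 1 library labelled male (adjusted p 0.0603 to 0.0978). Leaving out female replicate 3 gave 2 higher and 2 lower collagen receptor genes, with Itga1 (log2 0.19, adjusted p = 0.0469) and Ddr1 (log2 -0.73, 0.00263) added. Ddr1, a collagen receptor kinase gene, was also lower with no filter (adjusted p = 0.0177) and with the replicate block (0.0487), against 0.0689 in the fit to all libraries.

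Of 25 TGF-beta pathway genes 16 were tested. EdgeR called 0, with 2 higher at an unadjusted p under 0.05, and DESeq2 and limma-voom called 0. Smad3, a signal transducer gene, was higher without female replicate 3 (adjusted p = 0.0114) or male replicate 1 (0.0372). With all 6 libraries Smad3 was also higher with no filter (0.0145) and with the replicate block (0.0383). The median log2 change of the 16 was 0.

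Of 15 endothelial genes 10 were tested. EdgeR called 0, with 1 higher and 3 lower at an unadjusted p under 0.05, and DESeq2 and limma-voom called 0. Without female replicate 2 Pecam1 was lower (adjusted p = 0.0449), and without male replicate 1 Cdh5 was lower (adjusted p = 0.0271). Cdh5 was also lower with no filter (0.0446). Of the 15 genes 8 averaged at least 1 CPM, among them Erg at 52.1 CPM, Pecam1 at 47.99 CPM and Cdh5 at 6.43 CPM. Cldn5, a tight junction gene of brain endothelium, averaged 0.0749 CPM, Emcn 0.235 CPM, Robo4 0.348 CPM and Tek 0.373 CPM. The list summed to 114 to 123 CPM in female-labelled libraries and 126 to 130.1 CPM in male-labelled libraries. Erg and Pecam1 made up most of this sum, so it is not read as a level of the list as a whole.

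Few genes were called in other leukocyte and glial lists. Of 10 macrophage genes, all tested, Cd68 fell (log2 changes -0.31 to -0.25 over 14 settings) and Adgre1 rose, a call lost in 5 of 14 settings. Without female replicate 3 the macrophage list had 3 higher genes, with C1qa (log2 1.09, adjusted p = 0.00473) and Mertk (log2 1.38, 0.048) added, and C1qa was also higher with no filter (0.0229). Of 8 T and NK cell genes, all tested, Cd4 fell, a call lost without female replicate 1 (adjusted p = 0.05) or male replicate 2 (0.0816). EdgeR called 0 of 4 tested mast cell genes and 0 of 2 tested Schwann and glial genes, with 0 of either at an unadjusted p under 0.05 and 0 by DESeq2 and limma-voom, while Mbp was higher without female replicate 3.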
